A study of Homo sapiens with 12 samples.

Results

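The sterol and fatty acid synthesis genes were followed in HCC827 and NCI-H1975, established human non-small cell lung cancer cell lines that carry activating EGFR mutations. The 35 genes were chosen by name: 21 belong to cholesterol synthesis, its regulators and sterol transport, and 14 to fatty acid synthesis and its regulator. All 35 were found among the 16760 complete genes of the 18E table and the 17442 of the siRNA table. Of the members, 34 passed a filter on low values in both tables, which asked for 1 FPKM or more in 2 or more libraries of a table. FPKM values are corrected for transcript length and library size, so levels of different genes can be set side by side. THRSP, a lipogenic nuclear protein best known from liver, did not pass: it was listed between 0 and 0.2 FPKM in the 12 libraries.

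In the compound experiment each line was given 2.5 µM or 5 µM 18E, with 24 h stated for the 18E samples, or DMSO. In the siRNA experiment each line was given siDYN-1 or siDYN-2, with 48 h stated, or a control siRNA (siCON). The series title describes a small molecule that targets LIC1. That protein, a cargo-adaptor subunit of the dynein motor, is the product of DYNC1LI1. There was 1 library per line and treatment, so the lines are the replicates of a treatment (n = 2 lines), and nothing in the labels says that a line was cultured more than once. The siDYN fit counted siDYN-1 and siDYN-2 of a line as separate treated libraries, against 1 shared siCON library.

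DYNC1LI1 was at 2.42 and 1.22 FPKM with siDYN-1 and siDYN-2 in HCC827, against 16.28 FPKM with siCON, and at 5.1 and 3.04 FPKM in NCI-H1975, against 23.73 FPKM with siCON. With DMSO, 2.5 µM and 5 µM 18E it had 13.62, 13.08 and 25.03 FPKM in HCC827. In NCI-H1975 it had 21.35, 26.54 and 29.43 FPKM in the same order. Its RNA was thus higher at 5 µM 18E than with DMSO in both lines, and lower with siDYN than with siCON. Summed FPKM ran between 486409 and 575290 in the 18E table and between 605451 and 685680 in the siRNA table. Without read totals in the tables, sequencing depth is unknown. Genes listed at 0 FPKM numbered 1395, 1082 and 534 with DMSO, 2.5 µM and 5 µM 18E in HCC827 and 1077, 1051 and 898 in NCI-H1975. With siCON, siDYN-1 and siDYN-2 they numbered 2204, 2183 and 1570 in HCC827 and 2212, 2061 and 1519 in NCI-H1975. Why these counts differ was not tested. All 6 epithelial markers (EPCAM, KRT8, KRT18, KRT19, CDH1 and NKX2-1) were at 7.14 FPKM or more in every library, and the 8 blood, endothelial and stromal markers that had a value were at or under 1.47 FPKM. NKX2-1, the lung lineage factor, was at 32.33, 21.43 and 7.14 FPKM with DMSO, 2.5 µM and 5 µM 18E in HCC827 and at 44.72, 20.34 and 15.76 FPKM in NCI-H1975. It was also lower in all 4 siDYN libraries than in siCON, and its part in the results below was not tested.

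Cholesterol and fatty acids are both built from acetyl-CoA. The transcription factors SREBP-2 and SREBP-1, encoded by SREBF2 and SREBF1, are made as membrane proteins of the endoplasmic reticulum. SCAP carries them to the Golgi for cleavage when sterols are low, and INSIG1 holds SCAP back when sterols are high. SREBP-2 acts mainly on cholesterol synthesis genes and SREBP-1c mainly on fatty acid synthesis genes, and both bind sterol regulatory elements, often beside a CCAAT box bound by NF-Y.

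The promoters of 31 of the 35 members were found in a RefSeq table (GRCh38.p14). ACAT2, FDFT1, SQLE and FASN were not matched. The 250 bases before the annotated start were searched on both strands for the element core TCACNCCAC, where N is any base, for the NF-Y box CCAAT, for the Sp1-type box GGGCGG and for the E-box letters CACGTG. The element core was found in 1 of 18 sterol promoters, that of SREBF2 itself, and in 0 of 13 fatty acid promoters, against 0.867% of the promoters of genes tested in the 18E table. CCAAT was in 77.8% of the sterol and 46.2% of the fatty acid promoters, against 35.5%. GGGCGG was in 94.4% and 76.9%, against 68.3%, and CACGTG in 16.7% and 7.69%, against 8.96%. Such matches describe letters in this window and do not show binding. The promoter of SREBF2 is shown for its element core, and those of HMGCS1, SCD and SREBF1, chosen after their values were seen, because the results turn on these genes. Capitals mark the element core and each CCAAT or its reverse complement ATTGG.
SREBF2 chr22:41832855-41833104 (+ strand): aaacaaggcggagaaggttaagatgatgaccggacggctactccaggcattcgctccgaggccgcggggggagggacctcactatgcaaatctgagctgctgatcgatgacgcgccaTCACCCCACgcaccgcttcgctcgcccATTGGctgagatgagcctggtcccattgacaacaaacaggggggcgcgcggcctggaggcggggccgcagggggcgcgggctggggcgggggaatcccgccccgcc
HMGCS1 chr5:43313413-43313662 (- strand): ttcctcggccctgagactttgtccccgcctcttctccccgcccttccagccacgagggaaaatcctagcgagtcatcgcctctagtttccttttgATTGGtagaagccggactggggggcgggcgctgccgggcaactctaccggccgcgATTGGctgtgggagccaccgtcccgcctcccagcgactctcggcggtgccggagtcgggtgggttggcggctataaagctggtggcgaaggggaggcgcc
SCD chr10:100346983-100347232 (+ strand): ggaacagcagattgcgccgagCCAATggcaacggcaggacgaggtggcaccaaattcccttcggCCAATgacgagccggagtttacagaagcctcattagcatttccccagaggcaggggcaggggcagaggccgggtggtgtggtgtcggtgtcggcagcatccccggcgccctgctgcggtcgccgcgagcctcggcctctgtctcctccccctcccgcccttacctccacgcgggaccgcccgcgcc
SREBF1 chr17:17836987-17837236 (- strand): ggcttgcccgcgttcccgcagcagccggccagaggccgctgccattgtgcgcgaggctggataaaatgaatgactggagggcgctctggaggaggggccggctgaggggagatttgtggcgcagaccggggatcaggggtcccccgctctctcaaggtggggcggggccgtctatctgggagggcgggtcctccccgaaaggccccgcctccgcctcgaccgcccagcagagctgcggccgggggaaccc
In SREBF2 the element core begins 133 bases before the start and lies upstream of the single ATTGG. HMGCS1 and SCD each hold 2 such boxes in the window, and SREBF1 holds none. Only 1 window per gene was searched, so any other start of a gene was not covered. FPKM is listed per gene, so SREBP-1c cannot be told apart from other forms of SREBP-1. The start used for these windows can lie inside the gene bounds that RefSeq and GENCODE 29 give, and for some members far inside both. The ACLY window is chr17:41919023-41919272, while GENCODE starts this minus strand gene at 41930542. The GPAM window is chr10:112183766-112184015, while GENCODE starts this minus strand gene at 112215377. Such windows are counted in the shares above, which may thus miss the main promoter of a gene.

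In the control libraries most sterol genes stood lower in HCC827 than in NCI-H1975. Of 21 sterol genes 17 were lower in HCC827 in both control libraries and 1, DHCR7, the last enzyme of 1 branch of the pathway, was higher. Over the 11449 genes tested in both experiments, 50.8% were lower and 34.2% higher in HCC827 in both controls. IDI1, the isopentenyl diphosphate isomerase, had 8.69 FPKM with DMSO and 14.47 FPKM with siCON in HCC827, against 52.49 and 51.97 FPKM in NCI-H1975. SQLE, the squalene epoxidase, had 11.15 and 12.82 FPKM in HCC827, against 38.24 and 31.35 FPKM in NCI-H1975. EBP, the sterol isomerase, had 42.09 and 66.4 FPKM in HCC827, against 128.47 and 165.27 FPKM in NCI-H1975. The gap was seen in both experiments for these 3 genes. It is not given whether the values of the experiments were normalized together or apart. Of 14 fatty acid genes 9 were lower in HCC827 in both controls and 3 were higher, against the same shares of all genes. The 3 were ACLY, which makes cytosolic acetyl-CoA from citrate, ACACA, the acetyl-CoA carboxylase, and FADS1, a fatty acid desaturase. Each line has 1 library per control, so these gaps were not tested.

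**Figure D1:**
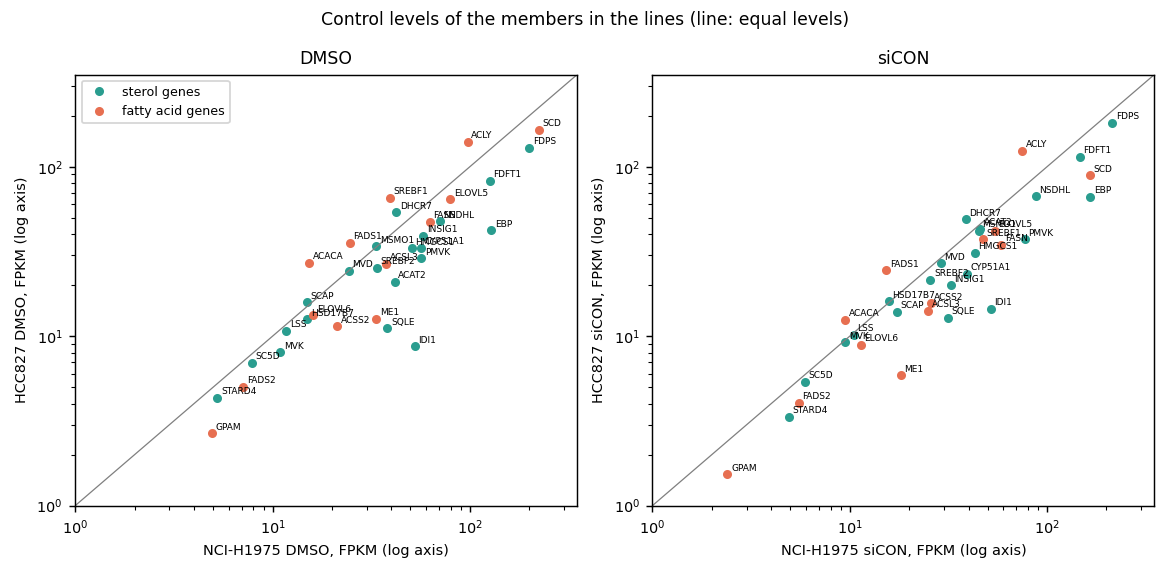
FPKM of each member in HCC827 (vertical log axis) against NCI-H1975 (horizontal log axis) in the DMSO and siCON libraries, 1 point per gene, with sterol and fatty acid genes in different colours and THRSP left out. IDI1, SQLE and EBP lie well under the line of equal levels in both panels, and ACLY, ACACA and FADS1 lie above it.

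At 5 µM 18E most fatty acid genes, 10 of 13 tested, were lower than with DMSO in both lines, most of all the desaturase SCD, the lipogenic factor SREBF1, the carboxylase ACACA and the elongase ELOVL6. SCD, which makes oleic acid and lies on chromosome 10 at 100347124 to 100364834 (GRCh38, GENCODE 29, plus strand), was the most abundant fatty acid member in every DMSO library. In order of dose from DMSO it had 165.13, 130.03 and 30.71 FPKM in HCC827, and 224.4, 167.99 and 138.09 FPKM in NCI-H1975. The 5 µM level was 18.6% of DMSO in HCC827 and 61.5% in NCI-H1975, so the direction was shared and the difference was larger in HCC827. The fitted log2 change at 5 µM was -1.54 ± 0.44 (SE, limma, adjusted p = 0.122). In these bulk libraries, less RNA per cell and fewer cells that express a gene cannot be told apart.

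SREBF1, on chromosome 17 at 17810399 to 17837002 (minus strand), had 65.36, 68.73 and 28.24 FPKM in HCC827 in the same order, and 39.32, 26.2 and 20.14 FPKM in NCI-H1975. Its level was thus lower at both doses in NCI-H1975, whereas in HCC827 it was lower at the high dose alone (fitted log2 change at 5 µM over both lines -1.06 ± 0.24, adjusted p = 0.104). ACACA had 27.17, 23.73 and 9.75 FPKM in HCC827 and 15.35, 12.66 and 9.89 FPKM in NCI-H1975 (-0.99 ± 0.26, adjusted p = 0.113). ELOVL6, which lengthens saturated chains, had 13.26, 13.29 and 6.02 FPKM in HCC827 and 16.1, 13.67 and 9.93 FPKM in NCI-H1975 (-0.83 ± 0.20, adjusted p = 0.107). For each of these genes the 2 libraries at 5 µM lay below the DMSO library of their own line. FASN, the fatty acid synthase, had 47.23, 45.34 and 28.69 FPKM in HCC827 and 62.72, 57.07 and 49.78 FPKM in NCI-H1975. ELOVL5, an elongase of polyunsaturated chains, had 64.35, 63.34 and 45.54 FPKM in HCC827 and 79.72, 58.54 and 54.92 FPKM in NCI-H1975.

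The desaturases FADS1 and FADS2 were lower at 5 µM in both lines, and by more in HCC827. FADS2 had 5.01, 5.64 and 2.42 FPKM with DMSO, 2.5 µM and 5 µM in HCC827 and 7.12, 7.28 and 5.78 FPKM in NCI-H1975 (log2 change at 5 µM -0.54 ± 0.22, adjusted p = 0.191). FADS1 at 5 µM was at 20.1 FPKM in HCC827, against 35.56 FPKM with DMSO, and at 22.86 FPKM in NCI-H1975, against 24.65 FPKM. Of the remaining members, ACLY ran between 87.91 and 140.76 FPKM over the 6 libraries, ACSS2, which makes acetyl-CoA from acetate, between 9.86 and 22.02, ACSL3, which activates fatty acids, between 25.26 and 37.61, and GPAM, the first enzyme of glycerolipid synthesis, between 2.2 and 4.94. ME1, the malic enzyme that supplies NADPH, was the 1 fatty acid member higher in both lines at 5 µM, at 17.02 FPKM, against 12.7 FPKM with DMSO, in HCC827 and 44.21 FPKM, against 33.61 FPKM with DMSO, in NCI-H1975.

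Of 13 tested fatty acid genes, 10 were lower in both lines at 5 µM and 1 was higher, where 40.8% of all tested genes were lower in both lines and 25.5% higher. At least 1.5-fold lower in both lines were 4 of the 13 (SREBF1, ACACA, ELOVL6 and SCD), against 5.14% of all tested genes. The median fitted log2 change of the list was -0.51, against -0.09 for all tested genes. At an unadjusted p under 0.05, 6 of 13 were lower and 0 higher, against 16.8% and 10.0% of all tested genes (26.8% in either direction). No member passed an adjusted p under 0.05 in limma, and 0.00837% of all tested genes did (1 gene). Without the NCI-H1975 library at 5 µM, 18 of the 34 tested members passed, along with 4520 genes in all. Without the HCC827 library at 5 µM, 0 members and 230 genes passed. In each of these fits 1 library gave the 5 µM level and was assumed to vary as the other groups do. Without the NCI-H1975 DMSO library, SCD alone passed (log2 change -1.95 ± 0.45, adjusted p = 0.0434).

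**Figure D2:**
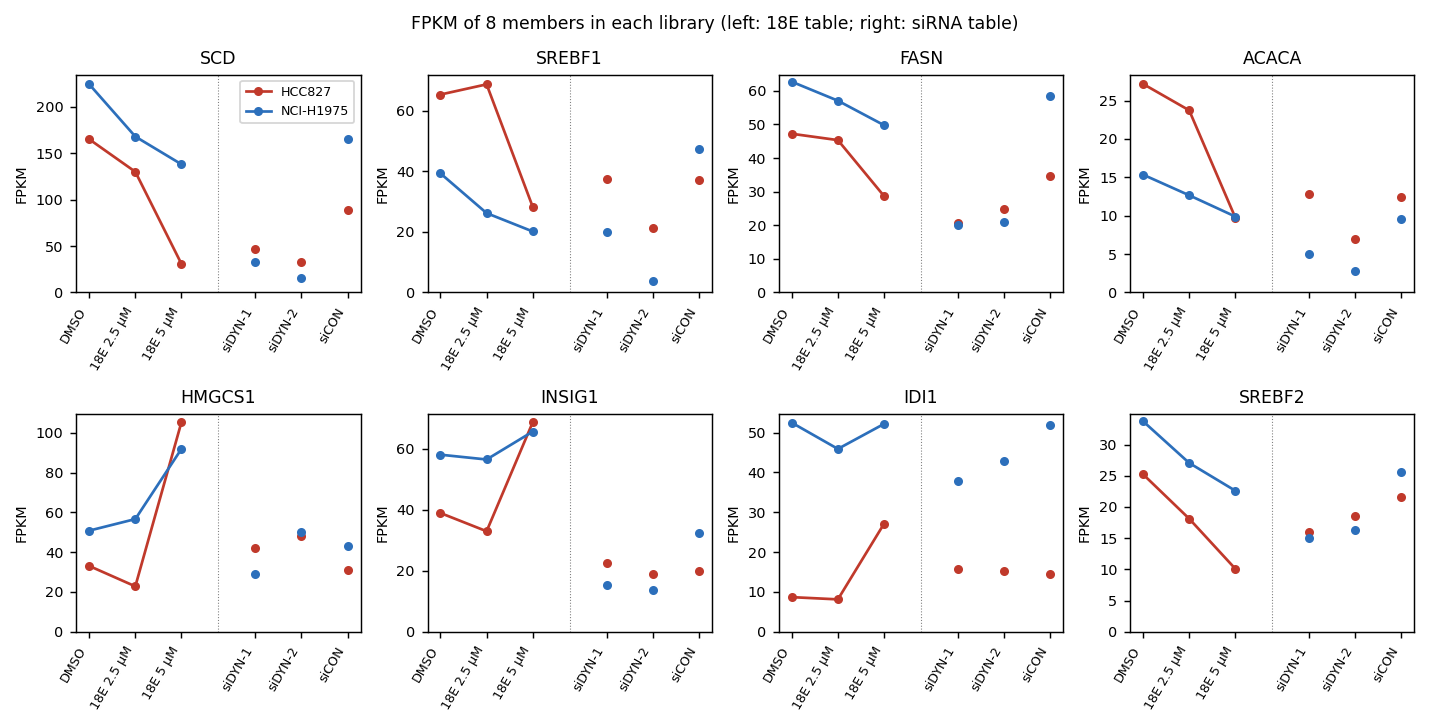
FPKM of 8 members in each of the 12 libraries, on axes that start at 0, with DMSO, 2.5 µM and 5 µM 18E joined by lines on the left and siDYN-1, siDYN-2 and siCON on the right of each panel. SCD, SREBF1, FASN, ACACA and SREBF2 stand lower at 5 µM than with DMSO in both lines, HMGCS1 and INSIG1 stand higher, and IDI1 stands higher in HCC827 alone.

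The sterol genes at 5 µM went both ways. HMGCS1 and INSIG1 were higher in both lines, and SREBF2, ACAT2 and FDPS were lower. HMGCS1, the cytosolic HMG-CoA synthase at the head of the mevalonate pathway, lies on chromosome 5 at 43289395 to 43313512 (minus strand). From DMSO over 2.5 µM to 5 µM it had 33.07, 22.81 and 105.36 FPKM in HCC827, and 50.8, 56.62 and 91.9 FPKM in NCI-H1975 (log2 change at 5 µM 1.24 ± 0.34, adjusted p = 0.119). Its 2 libraries at 5 µM were the highest of the 6. INSIG1 had 38.95, 32.97 and 68.73 FPKM in HCC827 and 58.08, 56.51 and 65.67 FPKM in NCI-H1975. IDI1 had 8.69, 8.13 and 27.12 FPKM in HCC827 and 52.49, 45.9 and 52.18 FPKM in NCI-H1975 (0.76 ± 0.39, adjusted p = 0.262). At 5 µM IDI1 was thus at 312% of DMSO in HCC827 and at 99.4% in NCI-H1975.

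SREBF2, on chromosome 22 at 41833079 to 41907308 (plus strand), stood on the other side. It had 25.24, 18.12 and 10.09 FPKM with DMSO, 2.5 µM and 5 µM in HCC827 and 33.74, 27.05 and 22.6 FPKM in NCI-H1975 (-0.90 ± 0.21, adjusted p = 0.105), so its level was lower at each higher dose in both lines. SCAP had between 11.43 and 17.69 FPKM over the 6 libraries. ACAT2, which makes acetoacetyl-CoA for the pathway, had 20.93, 14.88 and 11.97 FPKM in HCC827 and 41.54, 32.83 and 29.1 FPKM in NCI-H1975 (-0.63 ± 0.16, adjusted p = 0.112). FDPS, the farnesyl diphosphate synthase, had 129.38, 85.65 and 63.97 FPKM in HCC827 and 200.11, 190.34 and 186.56 FPKM in NCI-H1975 (-0.55 ± 0.23, adjusted p = 0.197). At 5 µM FDPS was thus at 49.4% of DMSO in HCC827 and at 93.2% in NCI-H1975.

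Of the other mevalonate enzymes, the kinase MVK ran between 6.14 and 10.94 FPKM over the 6 libraries and was lower in all 4 treated ones, PMVK between 25 and 61.84 FPKM and MVD between 18.22 and 27.77 FPKM. Squalene synthase (FDFT1) had 82.6, 57.13 and 46.96 FPKM in HCC827 and 125.88, 107.77 and 111.57 FPKM in NCI-H1975. Lanosterol synthase (LSS) had 10.73, 7.77 and 6.65 FPKM in HCC827 and 11.71, 13.01 and 11.37 FPKM in NCI-H1975. Both enzymes were thus lower at 5 µM by more in HCC827. SQLE ran between 10.4 and 38.24 FPKM, and the later sterol enzymes CYP51A1 between 33.3 and 70.45, MSMO1 between 25.35 and 40.97, NSDHL between 40.61 and 83.54, EBP between 27.48 and 128.47, SC5D between 6.71 and 8.12 and DHCR7 between 33.71 and 53.76 FPKM. HSD17B7 ran between 9.74 and 17.98 FPKM, a level that is uncertain because a near-identical pseudogene copy may share its reads. STARD4, a sterol carrier protein, was at 2.25 FPKM at 5 µM, against 4.32 FPKM with DMSO, in HCC827 and at 4.38 FPKM, against 5.25 FPKM, in NCI-H1975.

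Relative to DMSO, 10 of the 21 sterol genes stood lower at 5 µM in both lines and 4 stood higher. The shares of all tested genes were 40.8% and 25.5%. HMGCS1 was the 1 sterol gene that rose 1.5-fold or more in each line, against 3.09% of all tested genes. The median fitted log2 change of the sterol genes over both lines was -0.08, against -0.09 for all tested genes. By line the sterol median was -0.34 in HCC827, against -0.10 for all tested genes, and -0.04 in NCI-H1975, against -0.07. In HCC827 8 sterol genes were at least 1.5-fold lower and 3 higher, against 21.2% and 15.5% of all tested genes, and in NCI-H1975 0 were lower and 1 higher, against 9.20% and 5.62%. Set beside these, 7 fatty acid genes in HCC827 and 4 in NCI-H1975 were at least 1.5-fold lower and 0 higher. The median of the fatty acid genes was below that of the sterol genes at this dose, by 0.36 in HCC827 and by 0.29 in NCI-H1975.

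At 2.5 µM no member was at least 1.5-fold lower or higher than with DMSO in both lines, against 0.335% and 1.11% of all tested genes. In HCC827 2 sterol genes were at least 1.5-fold lower, against 2.75% of all tested genes. In NCI-H1975 0 members were lower or higher by that much, against 2.45% and 2.84%. Of the 21 sterol genes 15 were lower in both lines and 2 higher, where 31.6% and 32.2% of all tested genes were, and the median was -0.14 against 0.00. The largest fitted values were near -0.4: STARD4 at -0.40 ± 0.20, ACAT2 at -0.40 ± 0.16, HSD17B7 at -0.40 ± 0.21, SREBF2 at -0.38 ± 0.21 and FDFT1 at -0.37 ± 0.19, each with adjusted p = 0.915 in limma. Of the 13 fatty acid genes 6 were lower in both lines and 3 higher (median -0.11). SCD had a log2 change of -0.38 ± 0.44, ME1 0.33 ± 0.16, SREBF1 -0.25 ± 0.24, ELOVL5 -0.23 ± 0.17 and ACACA -0.22 ± 0.26, with adjusted p between 0.915 and 0.946. At an unadjusted p under 0.05, 1 member (ACAT2) was lower and 0 higher, against 2.01% and 3.25% of all tested genes (5.26% in either direction), and 0 genes of all passed the adjusted threshold. Without the NCI-H1975 library at 2.5 µM the fitted values of SCD, SREBF1 and ACACA were 0.08, 0.13 and 0.01. In that fit the gap between the lines also came from the 5 µM libraries. The HCC827 library at 2.5 µM itself was at -0.34, 0.07 and -0.19 from its DMSO library. Without the HCC827 DMSO library the fitted value of SCD was 0.03.

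Between the doses the fatty acid genes stood mostly lower and the sterol genes on both sides. Relative to 2.5 µM, 10 of 13 fatty acid genes were lower at 5 µM in both lines and 1 was higher, where 44.4% and 21.3% of all tested genes were. At an unadjusted p under 0.05, 6 fatty acid genes were lower and 0 higher, and 0 sterol genes were lower and 3 higher (HMGCS1, INSIG1 and HSD17B7), against 8.05% and 3.71% of all tested genes. HMGCS1 had a log2 change of 1.42 ± 0.34 for this step and SCD -1.16 ± 0.44. At least 1.5-fold higher in both lines was 1 member, HMGCS1, against 1.09% of all tested genes. The smallest adjusted p of a member was 0.411 and 0 genes of all passed. Stepwise lower levels from DMSO over 2.5 µM to 5 µM in both lines were seen in 6 sterol genes (SREBF2, ACAT2, FDPS, EBP, DHCR7 and STARD4) and 5 fatty acid genes (ACLY, ACACA, FASN, ELOVL5 and SCD), against 17.6% of all tested genes. No tested member had stepwise higher levels in both lines, as 9.65% of all tested genes did. Without the NCI-H1975 library at 5 µM, 15 members and 3478 genes passed the adjusted threshold for this step, and without the HCC827 library at 5 µM 0 members and 4 genes did.

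**Figure D3:**
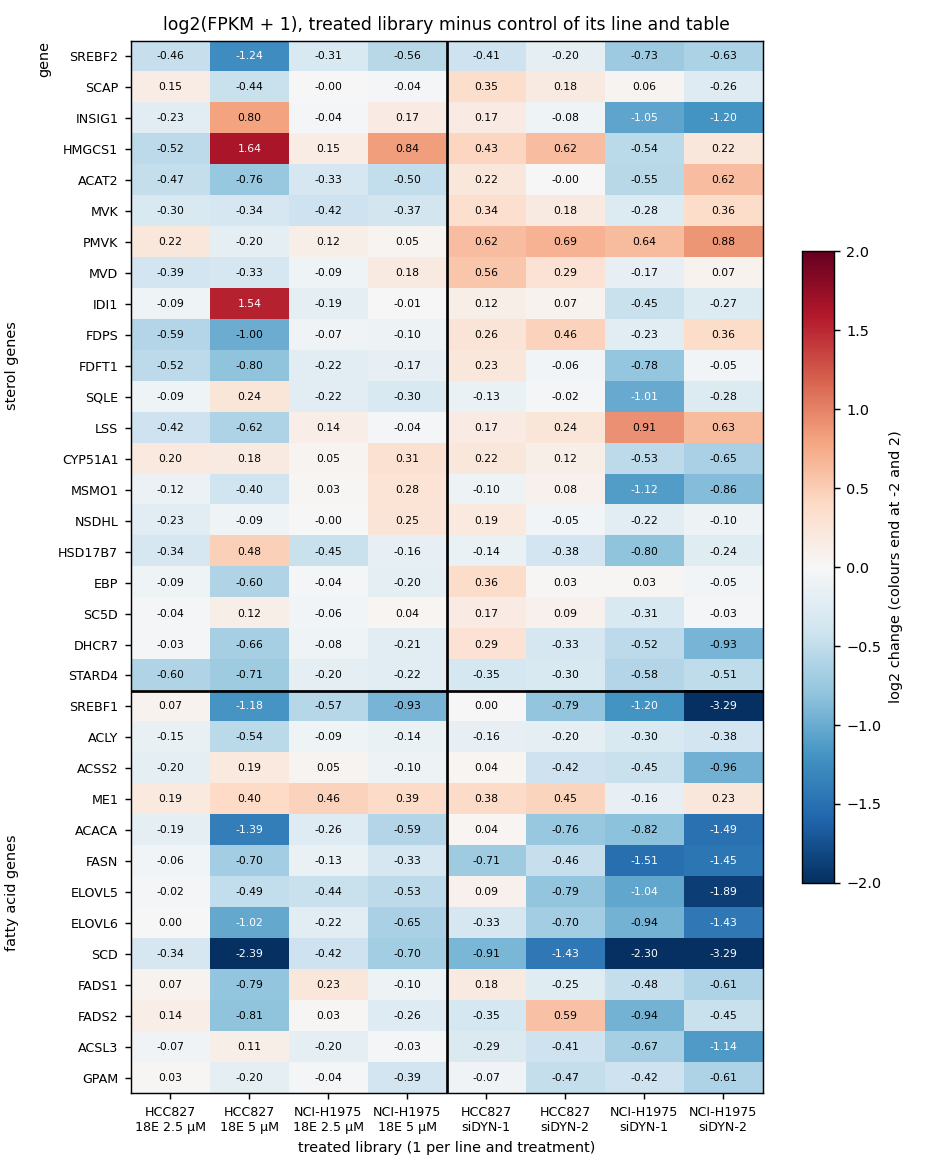
Log2 change of log2(FPKM + 1) in each of the 8 treated libraries from the control of its own line and table, for 21 sterol genes above the horizontal line and 13 fatty acid genes below it, with the 18E libraries left and the siDYN libraries right. The lowest values are those of SCD and SREBF1, both at -3.29 in NCI-H1975 with siDYN-2, and the highest is HMGCS1 at 1.64 in HCC827 with 5 µM 18E.

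With siDYN, 12 of 13 tested fatty acid genes had a negative fitted log2 change from siCON, where 49.1% of all tested genes did. The list's median was -0.07 and -0.46 with siDYN-1 and siDYN-2 in HCC827 and -0.82 and -1.14 in NCI-H1975. SCD had 46.98 and 32.49 FPKM with siDYN-1 and siDYN-2 in HCC827, against 89.22 FPKM with siCON, and 32.85 and 15.99 FPKM in NCI-H1975, against 165.23 FPKM with siCON. The siDYN level was 52.7% and 36.4% of siCON in HCC827 and 19.9% and 9.68% in NCI-H1975 (log2 change over both siRNAs -1.98 ± 0.43, limma, adjusted p = 0.0981). All 4 siDYN libraries lay below both siCON libraries. FASN, on chromosome 17 at 82078333 to 82098332 (minus strand), had 20.75 and 24.84 FPKM in HCC827, against 34.54 FPKM, and 19.96 and 20.85 FPKM in NCI-H1975, against 58.57 FPKM (-1.03 ± 0.22, adjusted p = 0.0981). ELOVL6 had 6.89 and 5.08 FPKM in HCC827, against 8.91 FPKM, and 5.44 and 3.61 FPKM in NCI-H1975, against 11.38 FPKM (-0.85 ± 0.23, adjusted p = 0.108). FASN and ELOVL6 thus also had every siDYN library below both siCON libraries.

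For SREBF1, ACACA and ELOVL5 the siRNAs and the lines parted. SREBF1 had 37.35 and 21.16 FPKM with siDYN-1 and siDYN-2 in HCC827, against 37.23 FPKM with siCON, and 20.13 and 3.95 FPKM in NCI-H1975, against 47.45 FPKM (-1.32 ± 0.65, adjusted p = 0.244). ACACA had 12.81 and 6.93 FPKM in HCC827, against 12.47 FPKM, and 4.95 and 2.74 FPKM in NCI-H1975, against 9.51 FPKM. ELOVL5 had 44.62 and 23.74 FPKM in HCC827, against 41.91 FPKM, and 25.81 and 13.92 FPKM in NCI-H1975, against 54.17 FPKM (-0.91 ± 0.38, adjusted p = 0.19). In HCC827 with siDYN-1 these 3 genes stood at 100%, 103% and 106% of siCON, and with siDYN-2 at 56.8%, 55.6% and 56.6%. Of 13 fatty acid genes, 10 were lower with siDYN-2 than with siDYN-1 in both lines, and 3 (ME1, FASN and FADS2) were higher, where 27.7% and 38.0% of all tested genes were. DYNC1LI1 itself was lower with siDYN-2 than with siDYN-1, at 1.22 against 2.42 FPKM in HCC827 and 3.04 against 5.1 FPKM in NCI-H1975. Whether its level bears on the fatty acid genes was not tested.

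Over the 6 siRNA libraries ACLY had 57.29 to 124.24 FPKM, ACSS2 11.41 to 25.74, ACSL3 10.44 to 24.99 and GPAM 0.83 to 2.4 FPKM. ME1 had 5.87 to 21.47 FPKM, FADS1 9.69 to 27.87 and FADS2 2.39 to 6.61 FPKM. ACLY, ACSL3 and GPAM were lower in all 4 siDYN libraries than in the siCON library of their line.

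Of 13 fatty acid genes, 6 were lower in all 4 siDYN libraries and 0 higher, where 25.6% and 24.9% of all tested genes were, and 1 (SCD) was at least 1.5-fold lower in all 4, against 0.700%. The median was -0.63, against 0.01 for all tested genes, and 6 were lower and 0 higher at an unadjusted p under 0.05, against 13.4% and 12.6% of all tested genes. No gene of all tested passed an adjusted p under 0.05 in limma, and 3042 (26.0%) had an unadjusted p under 0.05. DYNC1LI1, lower in all 4 siDYN libraries, had a log2 change of -2.48 ± 0.25 and did not pass either. Its adjusted p of 0.0784 in limma was the smallest of all tested genes. Not passing thus does not show that a gene was unchanged. In a fit of siDYN-2 alone against siCON 9 members passed, along with 2124 genes in all. They were SCD, SREBF1, ELOVL5, ACACA, ELOVL6, FASN, ACSL3 and ACSS2, all lower, and PMVK, higher, and SCD had -2.36 ± 0.40 (adjusted p = 0.0217). With siDYN-1 alone 82 genes and 0 members passed. Whether members differ between the siRNAs was not tested directly.

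The sterol genes with siDYN had medians of 0.22 and 0.07 with siDYN-1 and siDYN-2 in HCC827 and of -0.52 and -0.10 in NCI-H1975. At least 1.5-fold lower were 0 and 0 of 21 in HCC827 and 6 and 5 in NCI-H1975, against 5.15%, 6.75%, 9.18% and 14.4% of all tested genes in these libraries. At least 1.5-fold higher were 1, 2, 2 and 3, against 5.53%, 11.6%, 8.30% and 15.6%. PMVK, the phosphomevalonate kinase, was higher in all 4 siDYN libraries, at 57.95 and 60.7 FPKM in HCC827, against 37.23 FPKM, and at 120.87 and 143.23 FPKM in NCI-H1975, against 77.1 FPKM (0.71 ± 0.13, adjusted p = 0.0919). LSS was also higher in all 4, at 11.57 and 12.19 FPKM in HCC827, against 10.19 FPKM, and at 20.54 and 16.81 FPKM in NCI-H1975, against 10.48 FPKM (0.49 ± 0.18, adjusted p = 0.159). These were the 2 sterol genes higher in all 4 libraries, PMVK by at least 1.5-fold in each, as 1.34% of all tested genes were. SREBF2 had 15.98 and 18.57 FPKM in HCC827, against 21.55 FPKM, and 15.03 and 16.25 FPKM in NCI-H1975, against 25.65 FPKM (-0.49 ± 0.15, adjusted p = 0.122). It was lower in all 4 libraries, as was STARD4, which ran between 2.42 and 4.91 FPKM.

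INSIG1 had 22.52 and 18.84 FPKM with siDYN-1 and siDYN-2 in HCC827, against 19.97 FPKM with siCON, and 15.18 and 13.59 FPKM in NCI-H1975, against 32.54 FPKM (-0.54 ± 0.27, adjusted p = 0.243). MSMO1, a sterol methyl oxidase, had 38.94 and 44.16 FPKM in HCC827, against 41.84 FPKM, and 20.22 and 24.35 FPKM in NCI-H1975, against 45.13 FPKM (-0.50 ± 0.24, adjusted p = 0.227). CYP51A1, the lanosterol demethylase, had 27.26 and 25.35 FPKM in HCC827, against 23.25 FPKM, and 26.75 and 24.67 FPKM in NCI-H1975, against 39.18 FPKM. For all 3 the siDYN libraries of NCI-H1975 lay below its siCON library, while those of HCC827 lay on both sides of siCON or above it.

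Of the remaining sterol members, SQLE and HSD17B7 were lower in all 4 siDYN libraries than in the siCON library of their line, and the others were on both sides. HMGCS1 had 42.07 and 48.01 FPKM in HCC827, against 31 FPKM, and 29.24 and 50.22 FPKM in NCI-H1975, against 42.94 FPKM. FDPS ran between 181.95 and 274.17 FPKM over the 6 libraries, FDFT1 between 84.6 and 146.29, SQLE between 11.66 and 31.35, IDI1 between 14.47 and 51.97 and DHCR7 between 19.89 and 60.16 FPKM. ACAT2 ran between 30.99 and 70.55 FPKM, MVK between 7.64 and 12.45, MVD between 25.67 and 40.19, NSDHL between 64.52 and 87.72 and EBP between 66.4 and 168.66 FPKM. SCAP ran between 13.98 and 18.05 FPKM, HSD17B7 between 8.59 and 16.07 and SC5D between 4.58 and 6.18 FPKM. Of the 21 sterol genes 4 were lower and 2 higher in all 4 siDYN libraries, where 25.6% and 24.9% of all tested genes were, and the median was -0.05. The median of the fatty acid genes was below that of the sterol genes in each siDYN library, by 0.29 and 0.53 with siDYN-1 and siDYN-2 in HCC827 and by 0.30 and 1.04 in NCI-H1975.

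**Figure D4:**
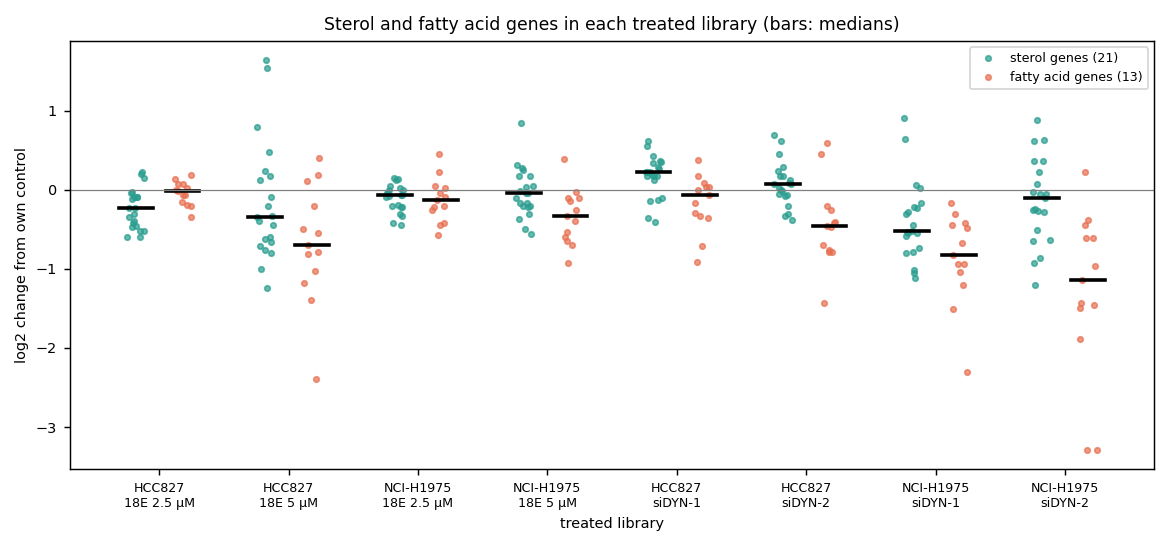
Log2 change from the control of its own line and table for each of 21 sterol and 13 fatty acid genes in the 8 treated libraries, 1 point per gene, with black bars at the medians. The fatty acid median lies below the sterol median in every library except HCC827 at 2.5 µM 18E, where it is above by 0.21.

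The lines were then contrasted directly with an interaction term, in which the siRNAs or the doses stand in for replicates. With siDYN, 13 of 13 fatty acid genes and 15 of 21 sterol genes had higher log2 changes in HCC827 than in NCI-H1975 with both siRNAs, where 35.3% of all tested genes did. Lower with both were 0 fatty acid and 2 sterol genes, against 32.0%. At least 1.5-fold higher with both siRNAs were 7 fatty acid and 4 sterol genes, against 2.33% of all tested genes, and 0 members were that much lower, against 2.06%. The median difference, HCC827 minus NCI-H1975, was 0.67 for the fatty acid and 0.36 for the sterol genes, against 0.01 for all tested genes. The 3 fatty acid genes with the largest differences were SREBF1 (1.85 ± 1.20, SE), SCD (1.62 ± 0.65) and ELOVL5 (1.11 ± 0.70). The 3 sterol genes with the largest were INSIG1 (1.17 ± 0.33), MSMO1 (0.98 ± 0.33) and CYP51A1 (0.76 ± 0.30). In limma each had an adjusted p of 1.00, and 0 of all genes passed. At an unadjusted p under 0.05, 4 members were higher (INSIG1, MSMO1, CYP51A1 and FASN) and 0 lower, against 0.845% and 0.674% of all tested genes. Both siDYN changes of a line are taken from the same siCON library, so these members' values in a line are not independent of that library. LSS and PMVK were the 2 sterol genes with lower log2 changes in HCC827 in the fit.

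**Figure D5:**
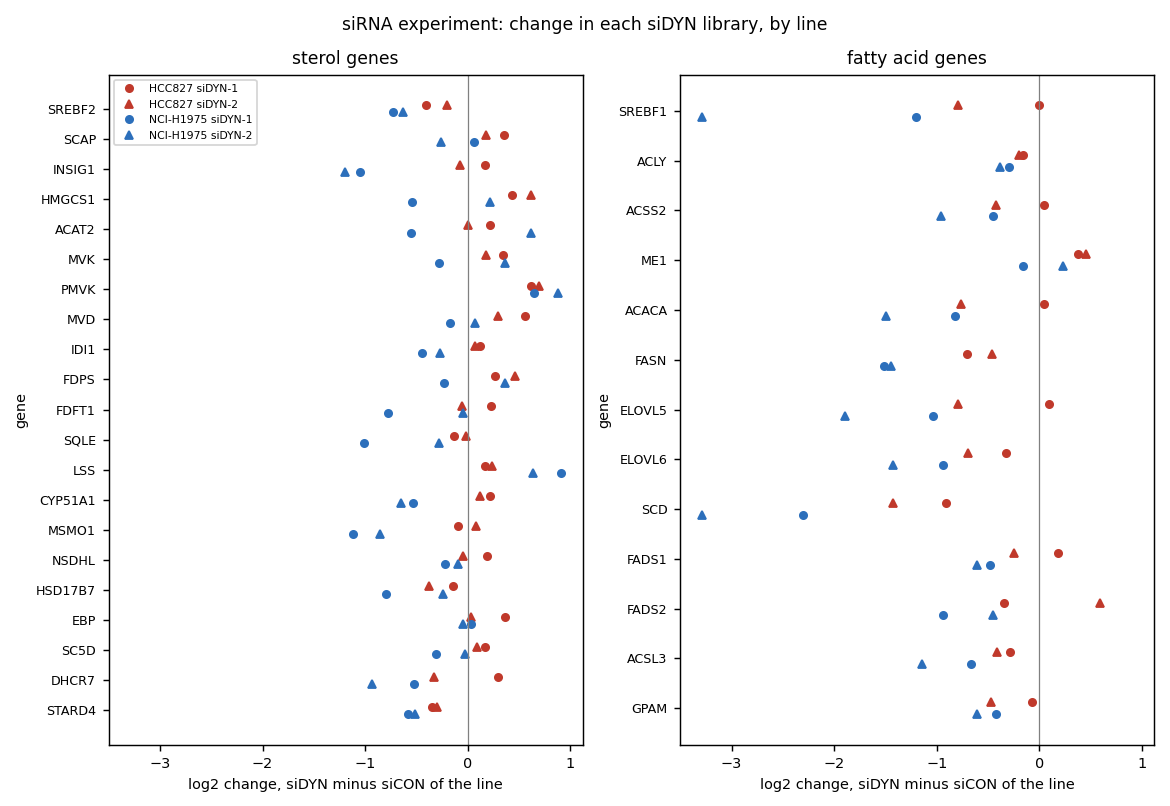
Log2 change from the siCON library of the same line for each tested member with siDYN-1 (circles) and siDYN-2 (triangles), HCC827 in red above NCI-H1975 in blue for each gene. For INSIG1, MSMO1, CYP51A1, FASN and SCD both HCC827 points lie to the right of both NCI-H1975 points.

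With 18E, of 34 tested members 12 had lower and 8 had higher log2 changes in HCC827 at both doses, where 32.8% and 34.1% of all tested genes did. The 3 sterol genes with the largest absolute differences over both doses were IDI1 (0.82 ± 0.92), FDPS (-0.71 ± 0.34) and LSS (-0.57 ± 0.38). The 3 such fatty acid genes were SCD (-0.81 ± 1.13), FADS1 (-0.43 ± 0.58) and ACACA (-0.37 ± 0.74). Each of these had adjusted p = 0.999 in limma, and 0 members had an unadjusted p under 0.05, against 1.72% of all tested genes (0.895% lower and 0.820% higher). At least 1.5-fold lower or higher at both doses were 0 members, against 2.13% and 3.05%. Without the HCC827 library at 5 µM the differences of SCD and ACACA were 0.21 and 0.23 and that of FADS1 0.00. The median log2 change of the 34 members at 2.5 µM was -0.11 in HCC827 against -0.08 for the other line, and at 5 µM -0.47 against -0.15. HCC827 at 5 µM also had the largest share of all genes at least 1.5-fold lower among the 8 treated libraries.

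Across the experiments, whose control libraries are separate, 5 of 13 fatty acid genes (ACLY, FASN, ELOVL6, SCD and GPAM) and 2 of 21 sterol genes (SREBF2 and STARD4) were lower both in the 2 libraries at 5 µM 18E and in the 4 siDYN libraries. Of the 11449 genes tested in both experiments, 15.1% were. No tested member was higher in all 6, as 9.22% of the genes were. HMGCS1 was higher in both lines at 5 µM 18E and mixed with siDYN, and PMVK was higher in the 4 siDYN libraries and within 0.20 of DMSO on the log2 scale at 5 µM.

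Other genes of the pathways were listed apart from the members. Of 23 tested further sterol genes 5 were lower and 1 higher at an unadjusted p under 0.05 at 5 µM, against 16.8% and 10.0% of all tested genes. With siDYN 4 were lower and 2 higher, against 13.4% and 12.6%. None of them passed the adjusted threshold in either comparison. LBR, a nuclear envelope protein with sterol reductase activity, had 53.26, 39.62 and 19.17 FPKM with DMSO, 2.5 µM and 5 µM in HCC827 and 49.12, 40.34 and 30.26 FPKM in NCI-H1975 (-1.05 ± 0.22, adjusted p = 0.104). With siDYN it had -1.23 ± 0.42 (adjusted p = 0.14). MYLIP, a ubiquitin ligase for lipoprotein receptors, was at 51.61 FPKM at 5 µM in HCC827, against 4.55 FPKM with DMSO, and at 6.28 FPKM in NCI-H1975, against 7.05 FPKM, so its fitted 1.55 ± 0.76 (adjusted p = 0.245) rests on 1 line. With siDYN MYLIP had -0.81 ± 0.21 (adjusted p = 0.104). VLDLR, a lipoprotein receptor, had -0.77 ± 0.23 at 5 µM (adjusted p = 0.128), and ABCA1, a cholesterol exporter, -0.53 ± 0.18 at 2.5 µM (adjusted p = 0.915) and -0.88 ± 0.48 with siDYN (adjusted p = 0.283). TMEM97, a sterol-regulated membrane protein, had -0.43 ± 0.25 and NR1H3, the oxysterol receptor LXR alpha, 0.39 ± 0.16 at 2.5 µM.

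Of the further fatty acid genes, 23 were tested with 18E and 22 with siDYN. At an unadjusted p under 0.05, 4 were lower and 2 higher at 5 µM, against 16.8% and 10.0% of all tested genes, and 4 were lower and 3 higher with siDYN, against 13.4% and 12.6%. FABP5, a fatty acid carrier, was the member of this list with the largest fitted value in all 3 comparisons. It had 45.53, 66.59 and 94.16 FPKM with DMSO, 2.5 µM and 5 µM in HCC827 and 100.22, 166.59 and 201.5 FPKM in NCI-H1975 (1.02 ± 0.14 at 5 µM, adjusted p = 0.1; 0.63 ± 0.14 at 2.5 µM, adjusted p = 0.915). With siDYN-1 and siDYN-2 it had 109.15 and 190.81 FPKM in HCC827, against 63.95 FPKM with siCON, and 221.49 and 274.33 FPKM in NCI-H1975, against 101.71 FPKM (1.22 ± 0.23, adjusted p = 0.0919). FABP5 was thus higher in every treated library, as were AGPAT2 and ELOVL1 of this list. Among the members, SCD was lower in every treated library, as were FASN, ACLY, SREBF2 and STARD4. The share of all tested genes with either pattern was not counted. In both 5 µM libraries and all 4 siDYN libraries, 15.1% of the genes tested in both experiments were lower and 9.22% higher. Neither pattern can thus be called particular to these genes. ACSL1, an acyl-CoA synthetase, was at 2.49 FPKM at 5 µM in HCC827, against 0.31 FPKM with DMSO, and at 22.14 FPKM in NCI-H1975, against 22.57 FPKM. Its fitted 0.69 ± 0.37 (adjusted p = 0.276) thus rests on 1 line, and was 0.01 without the HCC827 library at 5 µM. The synthetase ACSL5 had -0.67 ± 0.19 at 5 µM and ACSL4 -0.63 ± 0.16 with siDYN. FADS3 (0.61 ± 0.29) and AGPAT2 (0.48 ± 0.15) led at 2.5 µM after FABP5, and HACD1 had 0.53 ± 0.15 with siDYN.

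Genes of fatty acid oxidation, listed for contrast, had a median of -0.15 at 5 µM and 0.17 with siDYN over 14 tested genes. CPT2, a carnitine transferase, had -0.74 ± 0.23, HADH -0.63 ± 0.23 and ACAA1 -0.35 ± 0.15 at 5 µM (adjusted p 0.132, 0.163 and 0.211). With siDYN SLC25A20 had 0.76 ± 0.61, ACADM -0.70 ± 0.23 and ECI1 0.68 ± 0.15 (adjusted p 0.449, 0.132 and 0.0981). At 2.5 µM ECI1 had 0.38 ± 0.31, CPT1A 0.33 ± 0.18 and ACADVL 0.31 ± 0.18.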

How the data were processed

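The authors deposited FPKM values with 2 decimals, 1 column per library and 1 table per experiment, per the file headers. Bowtie 0.12.2 and the builds GRCh38.p12 and mm8 (a mouse build) appear, per the submitters' processing notes, with no word on what each did. How FPKM was computed, on which annotation and whether by strand is not given in the sources used here. Lines without 6 complete values were left out (40 of 16800 in the 18E table, 20 of 17462 in the siRNA table), and 0 columns stayed unmatched.

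Values were set to log2(FPKM + 1), a scale that understates differences of low genes. The tests took genes at 1 FPKM or more in 2 or more libraries (11953 for 18E, 11718 for siDYN) with limma 3.58.1 in R 4.3.3, with a variance trend, two-sided, Benjamini-Hochberg adjusted over all tested genes. Cell line was a block. Libraries of a line deviated together (correlations 0.791 to 0.939), and the pairing comes from the cell line labels. The siRNAs were pooled, with each siDYN library counted as a treated library. The standard errors and p-values of siDYN against siCON thus do not rest on the lines alone as replicates. The p-values measure only how these libraries disagree, and limma drew the spread of each gene toward a trend over all tested genes. The script was checked on simulated data.

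The members, lists and tests were chosen with earlier results of these data known. Fitted values are given for the 5 members per group with the largest absolute value in each comparison, 3 for the line differences and 3 per further list. All further genes singled out were picked with their values in view.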

Additional observations from a re-analysis of the deposited data

How the results depend on the processing

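The alternatives were a pseudocount of 0.1, no filter, no variance trend, scaling to equal totals, quantile normalization, no cell line block, each siRNA alone and each library left out (for the line differences, added after the data were seen). Equal totals moved the median of all genes at 5 µM to -0.17 in HCC827 and -0.19 in NCI-H1975. Members passing adjusted p stayed at 0 except with siDYN-2 alone (9) and on leaving out 1 library. At 5 µM 16 genes passed with pseudocount 0.1 and 0 with no filter, with equal totals, without the trend or without the replicate block. For siDYN 82 genes passed with siDYN-1 alone and 2124 with siDYN-2 alone, and 1 gene passed the siDYN line difference with pseudocount 0.1, where the fatty acid median was 0.76. The sterol median of NCI-H1975 with siDYN-2 was -0.26 with quantile normalization and with equal totals, against -0.10. That of HCC827 with siDYN-2 was 0.07 and with quantile normalization -0.05. The cause was not tested.

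Leaving out each library in turn, the sterol median ran from -0.37 to -0.04 at 5 µM, -0.28 to -0.08 at 2.5 µM, -0.21 to 0.10 for the step between doses, -0.17 to 0.11 for siDYN, -0.34 to -0.04 for the 18E line difference and 0.20 to 0.54 for the siDYN line difference. The fatty acid median ran from -0.72 to -0.31, -0.19 to 0.04, -0.62 to -0.30, -0.90 to -0.35, -0.43 to 0.21 and 0.46 to 0.79 in the same order. Genes passing ran from 34 to 4520 at 5 µM, 0 to 26 at 2.5 µM, 0 to 3478 for the step and 0 to 128 for siDYN (128 without HCC827 siDYN-1), and members from 0 to 18, 0 to 0, 0 to 15 and 0 to 0. For the line differences, 0 genes passed in every such fit. Fitted values that changed sign ran from -0.84 to 0.08 (SCD), -0.63 to 0.13 (SREBF1), -0.46 to 0.01 (ACACA) and -0.05 to 0.81 (ECI1) at 2.5 µM, from -1.13 to 0.04 (INSIG1) and -0.03 to 1.56 (SLC25A20) with siDYN, and from -1.83 to 0.21 (SCD), -0.86 to 0.00 (FADS1) and -0.97 to 0.23 (ACACA) for the 18E line difference. INSIG1 and SLC25A20 changed sign without the NCI-H1975 siCON library. With 1 library per line and treatment and no read totals, the precision of a single value cannot be given.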
